A study of Mus musculus with 17 samples.

Results

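Expression of 9 genes that mark mature macrophages or serve in the clearance of dead cells was followed across the 6 groups of the series: Adgre1, Siglec1, Mrc1, C1qa, C1qb, C1qc, Mertk, Axl and Vcam1. They were chosen by name, each was measured by 1 single-gene feature of the array, and all 9 were among the 19938 genes measured. The samples were CD11b+ spleen cells of female BALB/c mice, sorted on Ly-6C and Ly-6G into a monocytic subset (Mo, Ly-6C high) and a polymorphonuclear subset (PMN, Ly-6G high). The tumour-bearing mice had received 100000 Her-2/CT26 cells, a colon carcinoma line carrying the Her-2 antigen, under the skin 3 or 6 weeks before, and the naive mice had received none. All groups share the strain, the magnetic enrichment for CD11b before the sort and the use of pooled spleens. There were 3 Mo arrays from naive mice, 3 at 3 weeks and 3 at 6 weeks, and 4, 2 and 2 PMN arrays. The study addressed how the suppressive activity of these cells, called myeloid-derived suppressor cells by its authors, changes during tumour growth. The labels do not say whether replicates came from separate pools, so the p-values rest on differences between arrays that could be technical only.

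Macrophages of the spleen remove aged red cells, dying neutrophils and blood-borne particles. Apoptotic cells expose phosphatidylserine, which bridging proteins link to receptor tyrosine kinases on the phagocyte. Gas6 bridges to Mertk and Axl, and protein S to Mertk. C1q, built from the products of C1qa, C1qb and C1qc, coats dying cells and opens the classical complement pathway. Adgre1 encodes the surface receptor known as the F4/80 antigen, and Siglec1 encodes the sialic acid-binding lectin CD169 of certain macrophages. Mrc1 encodes the mannose receptor CD206, and Vcam1 encodes an adhesion protein carried by red pulp macrophages and by endothelium and stroma. Monocytes acquire most of these genes as they turn into macrophages, whereas neutrophils are not known for them.

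Values are log2 intensities. On the linear scale the median of an array was 95.3 to 114 for Mo and 81.0 to 95.9 for PMN. Genes that mark the subsets followed the labels. Ly6g, the gene of a sorting marker, lay between 10.21 and 12.97 in the PMN arrays. In the Mo arrays it lay between 5.7 and 6.56, except for 8.95 in 6-week replicate 2. Ccr2, a chemokine receptor gene of Ly-6C high monocytes, lay between 12.06 and 12.45 in the Mo arrays and between 6.07 and 6.78 in the PMN arrays. As a gauge of intensities that unused genes give, 1194 olfactory and vomeronasal receptor genes were read on every array. Their 95th percentile lay between 6.35 and 7.29 in Mo and between 6.55 and 7.34 in PMN. Their median change was -0.17 in Mo at 3 weeks, -0.33 in Mo at 6 weeks and -0.36 in PMN at 6 weeks against naive, and 593 of them in Mo and 684 in PMN passed the test as lower at 6 weeks. Small falls of dim genes at 6 weeks have to be read against that shift. Centring each array on its median shifted the changes of all genes by 0.14 in Mo and -0.02 in PMN at 3 weeks, by 0.19 in both at 6 weeks and by 0.21 from 3 to 6 weeks in PMN. It turned 4341 higher and 4863 lower genes in Mo at 6 weeks against naive into 5805 and 1379, and 1036 and 166 at 3 weeks into 1382 and 30. In PMN it turned 5075 higher and 7972 lower genes at 6 weeks against naive into 5760 and 3507, and 4726 and 6968 from 3 to 6 weeks into 5282 and 2438. Among the Mo arrays, replicate 1 at 6 weeks had moved least (the class II gene H2-Aa lay at 7.93 there and at 6.30 and 5.85 in the others, against 10.39 to 10.47 in naive arrays), and replicate 2 at 6 weeks held the most neutrophil RNA (Ly6g 8.95, against 6.56 and 6.43). Calls of the 9 genes that were lost without either are given with that value.

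The 9 genes sit on chromosomes 2, 3, 4, 7 and 17 of the RefSeq annotation of GRCm38.p6. Siglec1 (chromosome 2, 131067801 to 131086778), Mrc1 (chromosome 2, 14229414 to 14332023) and Mertk (chromosome 2, 128698915 to 128803162) share a chromosome. Adgre1 lies on chromosome 17 (57358581 to 57483529), Axl on chromosome 7 (25756500 to 25788924) and Vcam1 on chromosome 3 (116110020 to 116129688). The 3 C1q genes are neighbours on chromosome 4 and fill 18719 bases (136880126 to 136898844) with 0 other protein-coding genes among them. RefSeq promoters, 250 bases before to 50 after the start site, were at hand for 5 of the 9 genes, from the C57BL/6J reference and not from BALB/c. The promoters of 4 genes are shown, each 5′ to 3′ on the strand of its gene: those of C1qb and C1qc, whose values stayed closest together across the Mo arrays, and those of Mertk and Axl, receptors of the same kinase family whose values moved in opposite directions there. Capitals mark GAGGAA or its reverse complement TTCCTC, the core of sites bound by PU.1, the transcription factor of the myeloid lineage.
C1qb, chr4:136886151-136886450, minus strand: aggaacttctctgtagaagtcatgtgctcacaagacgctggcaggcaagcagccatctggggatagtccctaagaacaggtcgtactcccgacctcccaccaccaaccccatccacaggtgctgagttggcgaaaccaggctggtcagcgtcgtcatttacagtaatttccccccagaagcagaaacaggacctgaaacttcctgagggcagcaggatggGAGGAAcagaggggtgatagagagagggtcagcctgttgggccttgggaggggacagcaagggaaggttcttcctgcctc
C1qc, chr4:136892865-136893164, minus strand: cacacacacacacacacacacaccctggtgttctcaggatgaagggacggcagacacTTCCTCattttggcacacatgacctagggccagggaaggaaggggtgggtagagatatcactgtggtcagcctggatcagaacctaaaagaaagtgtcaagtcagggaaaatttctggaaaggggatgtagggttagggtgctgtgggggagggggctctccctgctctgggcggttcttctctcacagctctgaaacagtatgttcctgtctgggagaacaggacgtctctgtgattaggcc
Axl, chr7:25788684-25788983, minus strand: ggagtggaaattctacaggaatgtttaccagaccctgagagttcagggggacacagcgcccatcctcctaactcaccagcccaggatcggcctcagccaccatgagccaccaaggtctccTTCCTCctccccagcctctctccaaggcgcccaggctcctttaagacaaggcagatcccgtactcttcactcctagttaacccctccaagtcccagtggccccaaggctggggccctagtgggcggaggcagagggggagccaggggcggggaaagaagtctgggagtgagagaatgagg
Mertk, chr2:128698665-128698964, plus strand: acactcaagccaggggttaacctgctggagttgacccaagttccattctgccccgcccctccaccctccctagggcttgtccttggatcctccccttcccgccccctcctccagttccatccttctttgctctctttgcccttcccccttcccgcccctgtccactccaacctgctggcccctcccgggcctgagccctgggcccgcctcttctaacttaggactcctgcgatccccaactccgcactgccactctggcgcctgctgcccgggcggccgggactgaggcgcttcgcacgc
The PU.1 core stood in 4 of the 5 promoters. It lay at -30 in C1qb, at -193 in C1qc, at -130 in Axl and at -180, -167 and -35 in Mrc1. Positions are counted from the start site to the first base of the match. The start sites used for Axl and C1qc lie inside the annotated genes, whose 5′ ends are at 25788924 and 136892936. The match of Axl lies inside its annotated gene too. The PU.1 core was not found in that window of Mertk. Of 32851 RefSeq promoters of the same length, 28.3% hold it. The AP-1 site TGANTCA was found in 0 of the 5 (7.81% of all), the interferon response core GAAANNGAA in 0 of the 5 (8.56% of all) and the MAF half-site TGCTGA in C1qb alone (19.5% of all). All motifs were searched on both strands, and no motif overlaps another in C1qb, where 2 were found. The Mertk promoter was 66.0% G and C with 14 CpG, the Axl promoter 60.3% with 6, C1qb 56.3% with 6, C1qc 53.3% with 3 and Mrc1 50.3% with 3, and the median of all promoters was 52.7% with 7. These matches describe letters and were not linked to the intensities by any test.

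**Figure D1:**
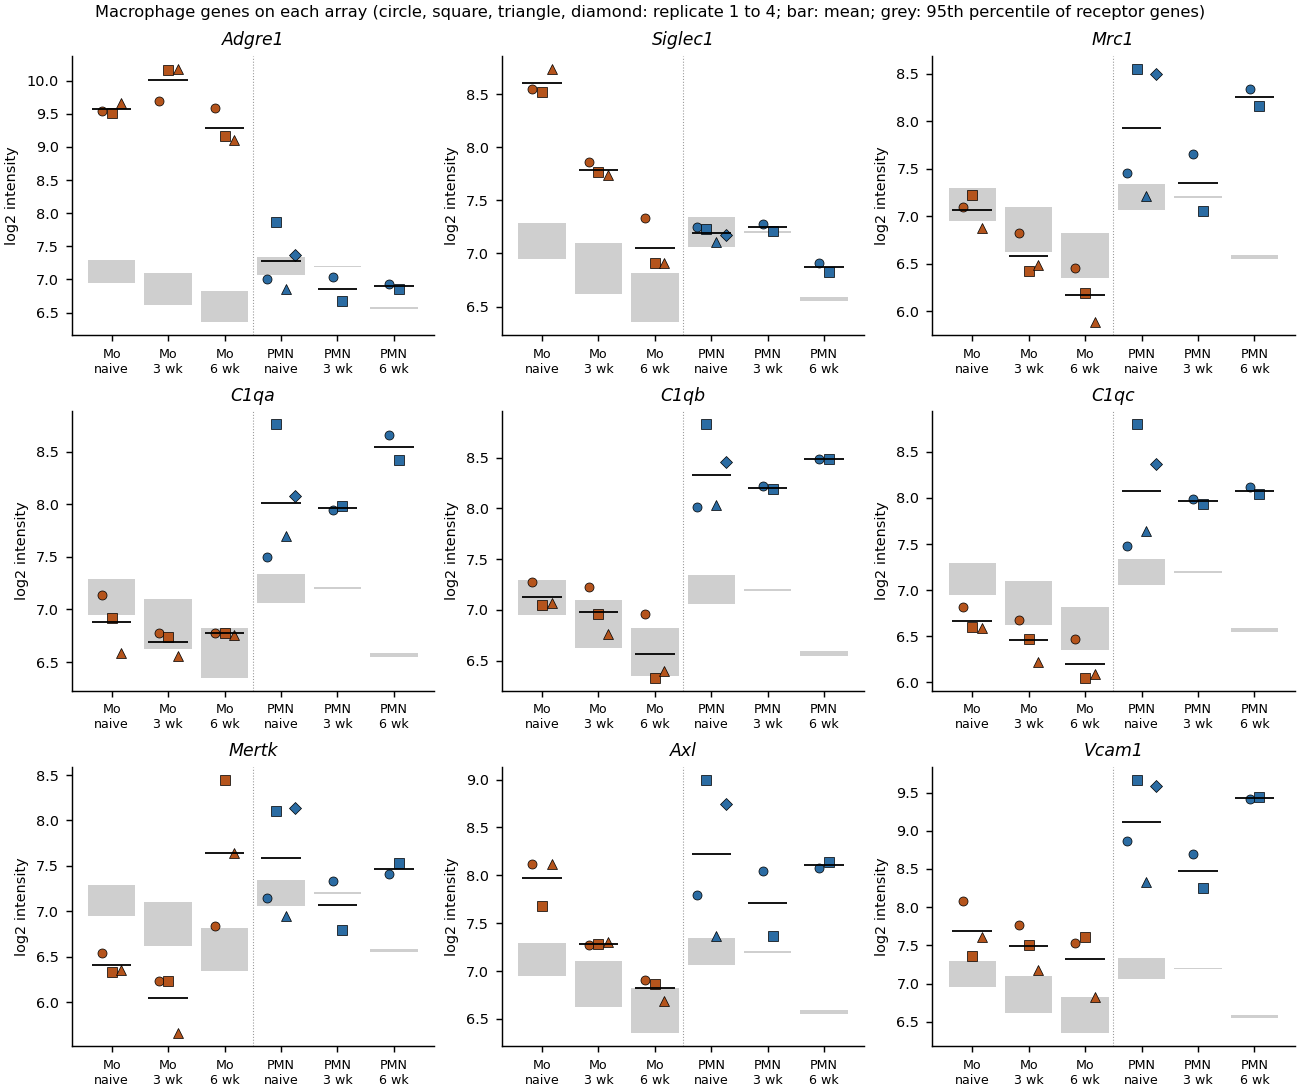
Log2 intensity (y axis, a scale of its own in each panel) of the 9 macrophage genes on each of 17 arrays by group (x axis). Symbols are replicates, bars are group means, and the grey band spans the 95th percentile of 1194 receptor genes over the arrays of a group. Siglec1 and Axl step down across the Mo groups, Mertk is above the band in the Mo arrays at 6 weeks only, and the C1q genes and Vcam1 are above it in every PMN array.

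In Mo cells of mice 6 weeks after injection, Siglec1 was lower than in naive mice by 2.94-fold, Axl by 2.22-fold and C1qb by 1.48-fold. Mertk was higher, by at least 1.42-fold between the group means, a call that was lost without 6-week replicate 2 (limma, adjusted p = 0.0651). Mrc1 was also called lower, at intensities close to those of unused genes. Adgre1, C1qa, C1qc and Vcam1 did not pass that test. At 3 weeks 1 of the 9 genes was called lower (Siglec1) and 0 were called higher, against 0.833% and 5.20% of all genes (limma; at an unadjusted p below 0.05, 2 of the 9 were lower and 0 higher). At 6 weeks against naive, 4 were called lower and 1 higher, against 24.4% and 21.8% of all genes. Between 3 and 6 weeks, 2 were called lower and 1 higher, against 3.13% and 4.38% of all genes. The median change of the 9 genes was -0.22 at 3 weeks, -0.47 at 6 weeks and -0.41 from 3 to 6 weeks, beside -0.05, -0.09 and -0.03 over all genes. Since the 3-week and 6-week contrasts share the naive arrays, their changes are not independent.

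Siglec1, the CD169 gene, changed most steadily. It lay at 8.55, 8.52 and 8.74 in the naive Mo arrays, at 7.86, 7.77 and 7.74 at 3 weeks and at 7.33, 6.91 and 6.91 at 6 weeks. The 3 groups did not overlap, and replicate 1 at 6 weeks was the nearest to the 3-week arrays. The means were 8.60 ± 0.12, 7.79 ± 0.06 and 7.05 ± 0.24 (SD, n = 3 each). The fall was 1.76-fold at 3 weeks (log2 -0.82 ± 0.11 SE, adjusted p = 0.00173) and 2.94-fold at 6 weeks (-1.55 ± 0.11 SE, adjusted p = 6.79e-08). From 3 to 6 weeks it was 1.67-fold (-0.74 ± 0.11 SE, adjusted p = 0.000176). The 6-week calls held in all 26 alternative settings, and the 3-week call was lost only when the Mo arrays were fitted without the PMN arrays (adjusted p = 0.134). All 9 Mo arrays were above the 95th percentile of the receptor genes. In sorted bulk samples, fewer cells that carry Siglec1 and less Siglec1 RNA per cell cannot be told apart, and this holds for each gene below.

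Adgre1, the F4/80 gene, followed another course. It lay at 9.55, 9.51 and 9.67 in naive Mo arrays, at 9.69, 10.16 and 10.18 at 3 weeks and at 9.59, 9.16 and 9.10 at 6 weeks. The 3-week arrays were all above the naive ones and above the 6-week ones, whereas naive and 6-week arrays overlapped. Neither change against naive passed the test (0.43 ± 0.21 SE, adjusted p = 0.158 at 3 weeks, and -0.29 ± 0.21 SE, adjusted p = 0.253 at 6 weeks). The difference between 3 and 6 weeks did, at 1.65-fold (-0.72 ± 0.21 SE, adjusted p = 0.0436), but this call held in only 10 of 26 alternative settings. It was lost with the replicate number as a block over all 17 arrays (-0.72, adjusted p = 0.059). It was also lost, for example, after centring each array (-0.67, adjusted p = 0.128), without replicate 2 or 3 at 3 weeks (-0.65, adjusted p = 0.147, and -0.64, adjusted p = 0.131) and without replicate 2 or 3 at 6 weeks (-0.66, adjusted p = 0.171, and -0.63, adjusted p = 0.196). Without replicate 1 at 3 weeks, the rise at 3 weeks passed (0.60, adjusted p = 0.0384). On every Mo array Adgre1 was far above the receptor genes.

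Mrc1, the mannose receptor gene, was dim in Mo cells. It lay at 7.10, 7.22 and 6.87 in naive arrays, at 6.82, 6.42 and 6.49 at 3 weeks and at 6.45, 6.19 and 5.88 at 6 weeks. Naive arrays were above the others, and the 3-week and 6-week arrays overlapped. The change to 6 weeks was -0.89 ± 0.29 SE (adjusted p = 0.0205). Of the 9 Mo arrays, 1 was above the 95th percentile of the receptor genes, a naive one, so the level is close to what unused genes give. The percentile itself lay at 7.29, 7.15 and 6.95 in the naive arrays and at 6.82, 6.43 and 6.35 at 6 weeks. No bound on the fold of Mrc1 can therefore be given. The call was lost after centring (-0.71, adjusted p = 0.0687), after joint quantile normalization (-0.66, adjusted p = 0.142), with a floor at a log2 intensity of 6 (-0.85, adjusted p = 0.0669), and without naive replicate 1 (-0.88, adjusted p = 0.061), naive replicate 2 (-0.81, adjusted p = 0.071), 6-week replicate 2 (-0.90, adjusted p = 0.0538) or 6-week replicate 3 (-0.75, adjusted p = 0.0924).

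The C1q genes were low in Mo cells at every stage. C1qb lay at 7.27, 7.05 and 7.07 in naive arrays, at 7.23, 6.96 and 6.76 at 3 weeks and at 6.96, 6.33 and 6.40 at 6 weeks. Naive and 6-week arrays did not overlap, and replicate 1 was the highest of each group. Of the 9 arrays, 6 were above the 95th percentile of the receptor genes. The fall to 6 weeks was 1.48-fold (-0.57 ± 0.19 SE, adjusted p = 0.0267). It was lost after centring (-0.38, adjusted p = 0.117), after joint quantile normalization (-0.37, adjusted p = 0.12), with the floor (-0.57, adjusted p = 0.0654), and without naive replicate 1 (-0.50, adjusted p = 0.0984), naive replicate 2 (-0.61, adjusted p = 0.0516), 6-week replicate 2 (-0.45, adjusted p = 0.112) or 6-week replicate 3 (-0.49, adjusted p = 0.105). C1qc lay at 6.82, 6.60 and 6.59, then at 6.68, 6.47 and 6.22, then at 6.47, 6.05 and 6.09. Its change to 6 weeks was -0.47 ± 0.25 SE (adjusted p = 0.118), and 0 of 9 Mo arrays were above the 95th percentile of the receptor genes. C1qa lay at 7.14, 6.92 and 6.59, then at 6.78, 6.74 and 6.56, then at 6.78, 6.78 and 6.76, with overlap between all groups and a change of -0.11 ± 0.22 SE at 6 weeks (adjusted p = 0.683). It was above that percentile in 3 of 9 Mo arrays. Set each to its own mean, C1qb and C1qc differed by 0.07 on average over the 9 Mo arrays, the smallest distance of any pair of the 9 genes in Mo, and C1qa lay 0.16 from C1qc and 0.23 from C1qb.

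Axl and Mertk, receptors of the same kinase family that both bind Gas6, moved apart in Mo cells. Axl lay at 8.12, 7.68 and 8.12 in naive arrays, at 7.27, 7.28 and 7.30 at 3 weeks and at 6.91, 6.86 and 6.69 at 6 weeks. The 3 groups did not overlap. Its fall to 6 weeks was 2.22-fold (-1.15 ± 0.30 SE, adjusted p = 0.00727) and was called in all 26 alternative settings, with changes from -1.30 to -0.97. The value at 3 weeks was -0.69 ± 0.30 SE (adjusted p = 0.128), which did not pass.

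Mertk lay at 6.54, 6.33 and 6.36 in naive Mo arrays, at 6.24, 6.24 and 5.66 at 3 weeks and at 6.84, 8.45 and 7.64 at 6 weeks. The 6-week arrays were above all others but spread widely, from 6.84 in replicate 1 to 8.45 in replicate 2 (mean 7.64 ± 0.80, SD, n = 3). The naive and 3-week arrays were below the 95th percentile of the receptor genes, and the 6-week arrays were above it. The change was 1.23 ± 0.34 SE against naive (adjusted p = 0.0103) and 1.59 ± 0.34 SE against 3 weeks (adjusted p = 0.00576). Since the lower groups were at the level of unused genes, the folds are bounds. The percentile of each such array was put in place of its Mertk value. The rise of the group mean was then at least 1.42-fold against naive and at least 1.82-fold against 3 weeks. These bounds carry no error, and 6-week replicate 1 (6.84) was below the percentiles of the naive arrays (7.29, 7.15 and 6.95). Without 6-week replicate 2 the rise was 0.83 against naive and did not pass (limma, adjusted p = 0.0651). With a floor at 6 the rise against 3 weeks was 1.48 (limma, adjusted p = 0.0505). Without 6-week replicate 1, the rise against naive was 1.63.

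Markers of neutrophils and progenitors were also higher in the 6-week Mo arrays, and those of red cells in part of these arrays. The 10 neutrophil markers summed to 7570, 19500 and 8120 linear intensity units in 6-week replicates 1, 2 and 3, against 1950 to 2560 in naive Mo arrays. Of the 10, 7 were called higher and 1 lower in Mo at 6 weeks against naive, beside 21.8% and 24.4% of all genes. The 5 erythroid markers measured summed to 2520, 3760 and 885 in the same 3 arrays, against 701 to 1160 in naive Mo arrays, and 1 of the 5 was called higher. The 9 markers of granulocyte-monocyte progenitors and dividing cells summed to 7680, 13400 and 18200 there, against 871 to 1530 in naive arrays. Replicate 2, with the highest Mertk, had the highest neutrophil and erythroid sums, and replicate 3 had the highest progenitor sum. Replicate 3 had a Mertk level of 7.64, with neutrophil and erythroid sums close to or below those of replicate 1, where Mertk lay at 6.84, and a progenitor sum above it. On the PMN arrays at 6 weeks, which have a scale of their own, the same 10 markers summed to between 68400 and 72400 and Mertk lay at 7.41 and 7.53. The part of these cells in the rise of Mertk was not tested.

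Vcam1 lay at 8.08, 7.36 and 7.61 in naive Mo arrays, at 7.77, 7.51 and 7.18 at 3 weeks and at 7.53, 7.61 and 6.82 at 6 weeks. All groups overlapped, and the change to 6 weeks was -0.37 ± 0.30 SE (adjusted p = 0.306). Groups without overlap were seen for 5 genes lower and 1 higher at 6 weeks against naive, where 31.4% and 23.7% of all genes were arranged so, and for 4 lower and 1 higher at 3 weeks, where the shares were 10.4% and 10.5%. Between 3 and 6 weeks there were 3 lower and 1 higher, beside 6.80% and 6.47% of all genes.

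**Figure D2:**
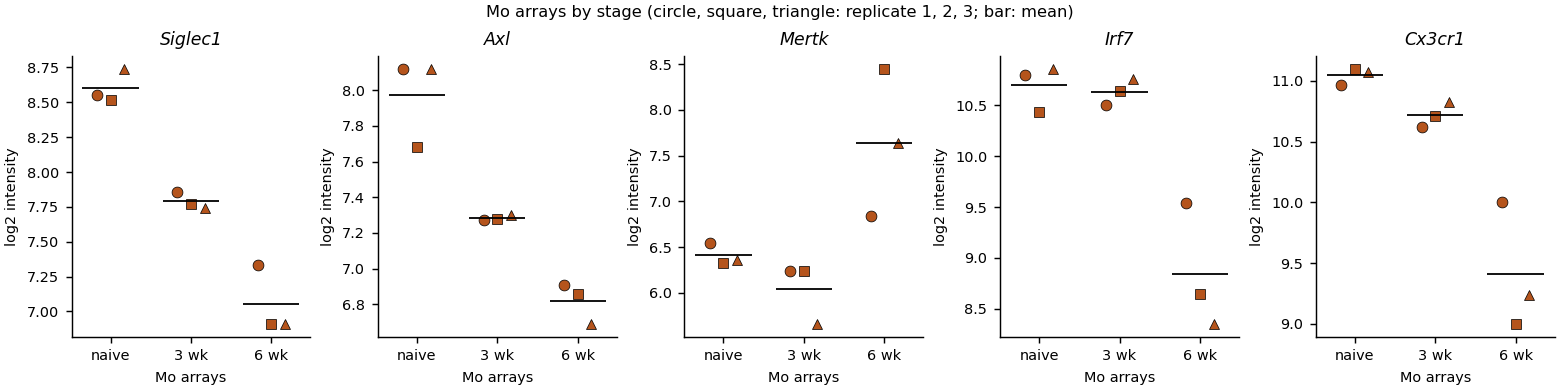
Log2 intensity (y axis, a scale of its own in each panel) of Siglec1, Axl and Mertk beside the interferon-induced regulator gene Irf7 and the chemokine receptor gene Cx3cr1 on the 9 Mo arrays by stage (x axis). Symbols are replicates and bars are means. All 3-week arrays lie below all naive arrays for Siglec1 and Axl, while at 3 weeks Irf7 lay between 10.50 and 10.76, within its naive range of 10.44 to 10.86.

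In PMN cells few changes of the 9 genes passed, and for all but Siglec1 the naive arrays spread widely. At 3 weeks against naive, 0 of the 9 genes passed, and 0 of all genes passed (0% called). At an unadjusted p below 0.05 in limma there were 0 of the 9 genes, and 244 higher and 130 lower genes in all. At 6 weeks against naive, 1 of the 9 was lower and 0 were higher, against 40.0% and 25.5% of all genes (at an unadjusted p below 0.05, 1 was higher). Between 3 and 6 weeks 2 were higher and 1 was lower, against 23.7% and 34.9% of all genes. The median change of the 9 genes was -0.42 at 3 weeks, 0.01 at 6 weeks and 0.40 from 3 to 6 weeks, beside 0.01, -0.18 and -0.20 over all genes. Of the 9 genes, 7 were higher in both 6-week arrays than in both 3-week arrays and 1 was lower, where 30.0% and 55.7% of all genes were arranged so.

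Siglec1 was the gene that passed at 6 weeks against naive. It lay at 7.25, 7.23, 7.11 and 7.17 in the naive PMN arrays, at 7.28 and 7.21 at 3 weeks and at 6.91 and 6.83 at 6 weeks. The 6-week arrays were below the rest, and the naive and 3-week arrays overlapped. The fall was 1.25-fold against naive (-0.32 ± 0.11 SE, adjusted p = 0.0205) and 1.30-fold against 3 weeks (-0.38 ± 0.13 SE, adjusted p = 0.0219). It was about the size of the median shift of the receptor genes (-0.36 and -0.34), and after centring it was -0.13 (adjusted p = 0.343) and -0.17 (adjusted p = 0.303). Against naive the call was also lost without 6-week replicate 1 (-0.36, adjusted p = 0.0597) or replicate 2 (-0.28, adjusted p = 0.129), and against 3 weeks without any of the 4 arrays compared (adjusted p from 0.055 to 0.107). Only 5 of 8 PMN arrays had Siglec1 above the 95th percentile of the receptor genes.

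Vcam1 was bright in PMN sorts. It lay at 8.87, 9.67, 8.33 and 9.59 in the naive arrays, at 8.70 and 8.25 at 3 weeks and at 9.41 and 9.44 at 6 weeks. The 6-week arrays were above the 3-week arrays but within the naive range. The difference between 3 and 6 weeks was 1.93-fold (0.95 ± 0.36 SE, adjusted p = 0.0344), and that from naive was 0.31 ± 0.32 SE (adjusted p = 0.39). Mrc1 behaved likewise, at 7.45, 8.55, 7.21 and 8.49 in naive arrays, 7.65 and 7.05 at 3 weeks and 8.34 and 8.16 at 6 weeks. It was 1.87-fold higher at 6 than at 3 weeks (0.90 ± 0.35 SE, adjusted p = 0.037) and within the naive range. Both calls were lost after joint quantile normalization (0.60, adjusted p = 0.184 for Vcam1, and 0.78, adjusted p = 0.115 for Mrc1), with the floor, and without 3-week replicate 2 (0.73, adjusted p = 0.194 for Vcam1, and 0.60, adjusted p = 0.251 for Mrc1). They were also lost without either 6-week array, with adjusted p from 0.1 to 0.112 for Vcam1 and from 0.0824 to 0.144 for Mrc1, and that of Mrc1 when PMN arrays were fitted alone (adjusted p = 0.0568).

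The C1q genes were above the receptor genes in all 8 PMN arrays. C1qa lay at 7.50, 8.76, 7.70 and 8.08 in naive arrays, at 7.94 and 7.98 at 3 weeks and at 8.66 and 8.42 at 6 weeks. Its change to 6 weeks was 0.53 ± 0.24 SE (adjusted p = 0.0565), and it passed without naive replicate 2 (0.78, adjusted p = 0.000797) and after centring (0.73, adjusted p = 0.0231). C1qb lay at 8.01, 8.83, 8.03 and 8.46, then at 8.22 and 8.19, then at 8.49 and 8.49, and C1qc lay at 7.48, 8.80, 7.64 and 8.37, then at 7.99 and 7.94, then at 8.12 and 8.04. In both, the naive arrays spanned the tumour-bearing ones, and the changes to 6 weeks were 0.16 ± 0.21 SE (adjusted p = 0.492) and 0.01 ± 0.26 SE (adjusted p = 0.975).

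The kinase receptors and Adgre1 likewise did not pass in PMN. Mertk lay at 7.15, 8.10, 6.95 and 8.14 in naive arrays, at 7.33 and 6.80 at 3 weeks and at 7.41 and 7.53 at 6 weeks. Axl lay at 7.79, 9.0, 7.37 and 8.74, then at 8.05 and 7.37, then at 8.08 and 8.14. The 6-week values of both were inside the naive range, with changes of -0.11 ± 0.36 SE (adjusted p = 0.793) and -0.11 ± 0.32 SE (adjusted p = 0.762). Adgre1 lay at 7.0, 7.87, 6.86 and 7.37 in naive arrays, at 7.04 and 6.67 at 3 weeks and at 6.93 and 6.86 at 6 weeks. Its change to 6 weeks was -0.38 ± 0.22 SE (adjusted p = 0.141), and 4 of 8 PMN arrays had it above the receptor genes.

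**Figure D3:**
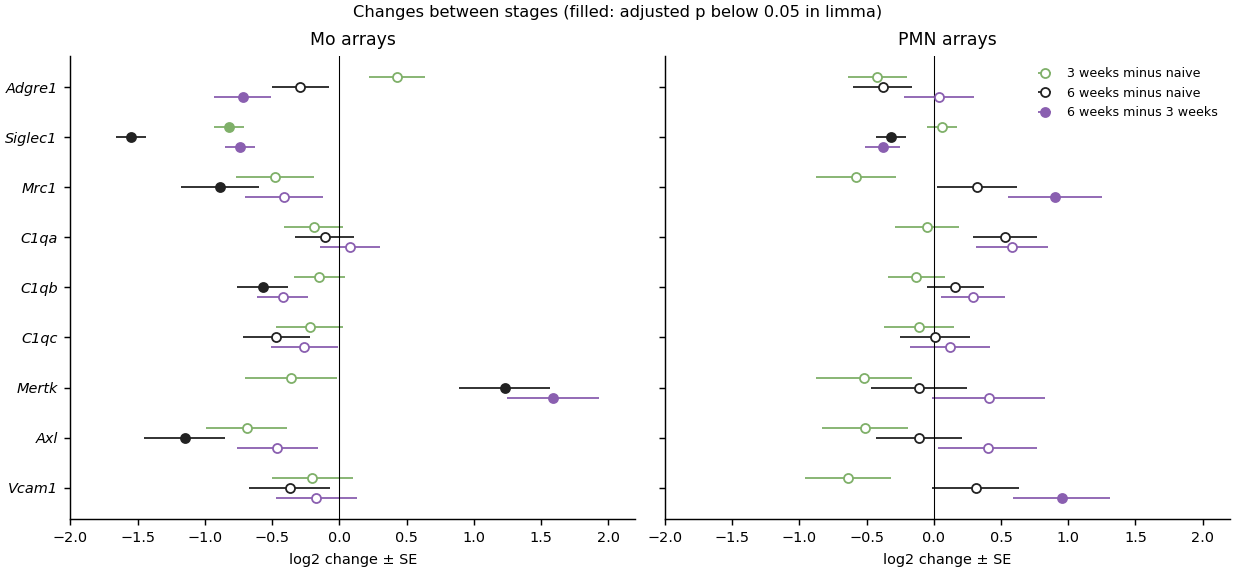
Log2 change between stages (x axis, ± SE from limma) of the 9 genes (y axis) in Mo arrays (left) and PMN arrays (right). Filled points passed at an adjusted p below 0.05: in Mo Siglec1, Axl, Mrc1 and C1qb fell and Mertk rose to 6 weeks, and in PMN Siglec1 fell to 6 weeks while Mrc1 and Vcam1 were higher at 6 than at 3 weeks.

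The naive PMN arrays split by replicate. For 8 of the 9 genes, all but Siglec1, replicates 2 and 4 were the highest of the 4 naive arrays, an arrangement shared by 9.96% of all genes. The gap between the highest and lowest naive PMN array was 1.62 for Axl, 1.34 for Mrc1 and Vcam1, 1.32 for C1qc, 1.26 for C1qa, 1.19 for Mertk, 1.01 for Adgre1 and 0.82 for C1qb, where the median gene spanned 0.24. Siglec1 spanned 0.14. Genes of spleen macrophages moved in the same arrays: of 16 measured on that list, 10 had replicates 2 and 4 highest. The haem oxygenase gene Hmox1 lay at 8.81, 10.09, 8.51 and 9.80, Spic, which encodes the transcription factor of red pulp macrophages, at 6.91, 7.57, 6.83 and 7.61, the ficolin gene Fcna at 7.70, 8.58, 7.60 and 8.17, and the haemoglobin scavenger receptor gene Cd163 at 6.25, 6.76, 6.21 and 6.74. The whole list summed to between 7060 and 10300 linear units in the naive PMN arrays, between 7240 and 7920 at 3 weeks and between 8340 and 8420 at 6 weeks. Marco, a scavenger receptor gene of marginal zone macrophages, lay between 6.05 and 6.23 in the naive PMN arrays, under the 95th percentile of the receptor genes, and the neutrophil gene Cxcr2 lay between 12.47 and 12.62. The part of macrophages in the PMN sorts in these values was not tested.

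The genes most like each member in PMN were sought by the mean absolute difference of values set to their own mean over the 8 arrays, a measure added after the values were seen and taken over genes other than the 9. Hmox1 was the nearest to Axl (0.04) and to Mertk (0.10). Ctsb, a lysosomal protease gene, and Hmox1 were nearest to Mrc1 (0.18 each), and Ctsb and Spic to Vcam1 (0.18 each). C1qc was nearest to Ccr3 (0.11), Itgad (0.12) and Fcna (0.12). Among the 9 genes, Mertk and Axl were 0.09 apart in PMN, Mrc1 and Vcam1 0.10, and C1qb and C1qc 0.14. In Mo, Mertk and Axl were 0.99 apart. All these distances share the same arrays and describe them only.

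**Figure D4:**
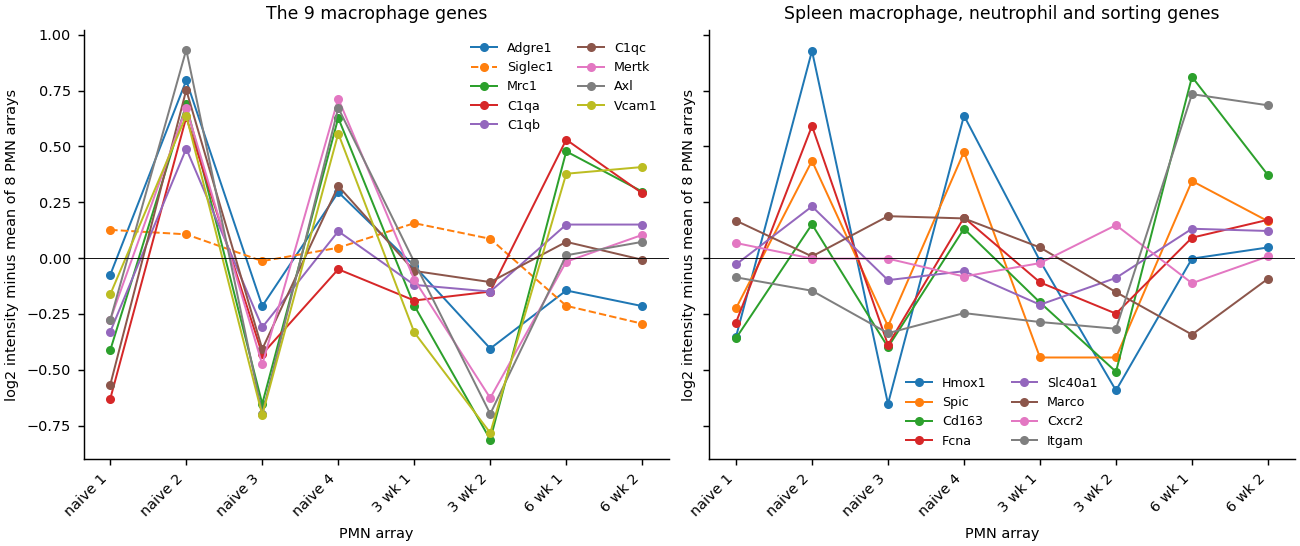
Log2 intensity minus the mean of 8 PMN arrays (y axis) on each PMN array (x axis), for the 9 macrophage genes (left; Siglec1 dashed) and for 8 spleen macrophage, neutrophil and sorting genes (right). Each line is a gene. In naive replicates 2 and 4, all genes on the left but Siglec1 are higher than in replicates 1 and 3, as are Hmox1, Spic, Cd163 and Fcna on the right, whereas Marco, Slc40a1, Cxcr2 and Itgam are not arranged so.

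The same measure over the 9 Mo arrays, again leaving out the 9 genes, gave other neighbours. The lipid transfer gene Pltp (0.10), the dendritic cell lectin gene Cd209a (0.16) and the kinase gene Sik1 (0.20) were nearest to Siglec1, which lay 0.16 from Axl. Flt1, which encodes a receptor of vascular growth factors, was nearest to Axl (0.14), and Clec4b2 (0.18), the mitotic gene Pimreg (0.20) and Wfdc21 (0.21) to Mertk. Rxra, Prr13 and the neutrophil growth factor receptor gene Csf3r were nearest to Adgre1 (0.06 each). Crim1 (0.06) was nearest to Mrc1 and Fam243 (0.09) to Vcam1.

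Whether the stage changes differed between Mo and PMN was tested as a difference of changes. For 3 weeks against naive, 0 of the 9 genes and 1 of all genes passed in limma (0.00502% called, in either direction; at an unadjusted p below 0.05, 1 of the 9 was higher and 1 lower). For 6 weeks against naive, 1 of the 9 passed as lower in Mo, where 11.0% of all genes did. That gene was Siglec1, whose change was -1.55 in Mo and -0.32 in PMN, a difference of -1.23 ± 0.16 SE (adjusted p = 5.19e-05) that held in all 25 alternative settings. Mertk differed by 1.35 ± 0.50 SE (adjusted p = 0.076; 1.75 and 0.00937 without 6-week Mo replicate 1) and Axl by -1.04 ± 0.44 SE (adjusted p = 0.121), neither of which passed with all arrays. Mrc1 and C1qb also passed without that replicate (-1.36, adjusted p = 0.0365, and -0.93, adjusted p = 0.0195). From 3 to 6 weeks, 1 of the 9 passed as lower in Mo, where 17.3% of all genes did. It was Mrc1, at -0.41 in Mo and 0.90 in PMN, a difference of -1.31 ± 0.45 SE (adjusted p = 0.0393) that held in 16 of 25 settings and was -1.01 without 3-week PMN replicate 2 (adjusted p = 0.175) and -1.32 without 6-week Mo replicate 2 (adjusted p = 0.0576). Without 6-week Mo replicate 1, Adgre1 (-0.92, adjusted p = 0.0486), Siglec1 (-0.50, adjusted p = 0.0149), C1qb (-0.90, adjusted p = 0.0271) and Mertk (1.59, adjusted p = 0.0204) passed too. The median difference of the 9 genes was -0.03, -0.68 and -0.71, beside -0.05, 0.07 and 0.17 over all genes. Siglec1 was above the 95th percentile of the receptor genes in 9 of 9 Mo arrays and 5 of 8 PMN arrays. Mrc1 was above it in 1 of 9 Mo arrays and 6 of 8 PMN arrays. Changes near background can be understated, and the part of background in these 2 differences was not tested.

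The levels of the subsets were not tested against each other, since the Mo and PMN arrays appear to have been normalized apart, and the order of the arrays is given as a description. Adgre1 was higher in all 9 Mo arrays (9.10 to 10.18) than in all 8 PMN arrays (6.67 to 7.87). C1qa (6.56 to 7.14 in Mo, 7.50 to 8.76 in PMN), C1qb (6.33 to 7.27 and 8.01 to 8.83), C1qc (6.05 to 6.82 and 7.48 to 8.80) and Vcam1 (6.82 to 8.08 and 8.25 to 9.67) were higher in all PMN arrays. Of all genes, 26.0% were higher in all Mo arrays and 3.38% in all PMN arrays. After joint quantile normalization these 5 genes kept that order and Mrc1 joined the second group (5.98 to 7.01 in Mo, 7.17 to 9.01 in PMN), beside 14.3% and 12.2% of all genes. Siglec1, Mertk and Axl overlapped on both scales.

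The genes around these 9 in the same processes were read from lists in Mo at 6 weeks against naive. Of 9 bridging ligands and opsonins, 5 rose and 1 fell, with a list median of 0.33, where 21.8% of all genes were called higher and 24.4% lower. The thrombospondin gene Thbs1 rose by 1.64 ± 0.16 SE (adjusted p = 1.58e-06), Lgals3, which encodes galectin-3, by 0.84 ± 0.17 SE (adjusted p = 0.00124), and Anxa1, which encodes annexin A1, by 0.80 ± 0.11 SE (adjusted p = 6.84e-05). Gas6, the ligand gene of Axl and Mertk, fell by 0.58 on the log2 scale (SE 0.17, adjusted p = 0.014). Pros1, the protein S gene, was higher by 0.40 at 6 weeks (adjusted p = 0.0329) and by 0.72 at 3 weeks (adjusted p = 0.0204). In PMN at 6 weeks against naive, 4 of the 9 rose and 3 fell, beside 25.5% and 40.0% of all genes. Lgals3 rose by 2.01 ± 0.18 SE (adjusted p = 1.71e-07) and Anxa5 by 1.87 ± 0.14 SE (adjusted p = 4.25e-08). The dim gene Gas6 fell there by 0.55 on the log2 scale (adjusted p = 0.0158), beside a receptor gene shift of -0.36.

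Of 22 other engulfment receptors and adaptors, 2 rose and 6 fell in Mo at 6 weeks, with a median of -0.17. In that contrast 21.8% of all genes were called higher and 24.4% lower, and the counts of the lists that follow have to be read beside these shares. Cd300lf, which encodes a phosphatidylserine-binding receptor, rose by 1.95 ± 0.18 SE (adjusted p = 8.78e-07) and the scavenger receptor gene Msr1 by 0.59 (adjusted p = 0.0113). Cd36, a scavenger receptor gene, fell by 1.28 on the log2 scale (adjusted p = 0.00383) and the integrin gene Itgb3 by 0.57 (adjusted p = 0.00188). Tyro3, the other member of the Mertk and Axl family, was lower by -0.35 ± 0.12 SE (adjusted p = 0.0248), close to the receptor gene shift of -0.33. Of 10 measured complement genes besides C1q, 3 rose and 3 fell, with a median of 0.05. They span the classical pathway, the alternative pathway and receptors. Of the classical pathway genes among them only C2 passed, lower by 0.37 on the log2 scale (adjusted p = 0.0309), close to the receptor gene shift. The properdin gene Cfp rose by 1.08 ± 0.19 SE (adjusted p = 0.000626), Cd93 by 1.08 ± 0.12 SE (adjusted p = 8.3e-06) and the anaphylatoxin receptor gene C5ar1 by 0.60 (adjusted p = 0.000383), while the factor B gene Cfb fell by 0.63 on the log2 scale (adjusted p = 0.00132). Of 9 genes of lipid handling after engulfment, 0 rose and 2 fell (Lpl -0.69, adjusted p = 0.0284, and Pparg -0.58, adjusted p = 0.0034), with a median of -0.22, and at an unadjusted p below 0.05 in limma the counts were 0 and 4.

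Genes of spleen macrophages fell in the Mo arrays as well. Of 16 measured, 0 rose and 8 fell at 6 weeks, beside 21.8% and 24.4% of all genes. Their median was -0.30, close to the receptor gene shift (limma; 0 and 8 at an unadjusted p below 0.05). Spic fell by 1.13 on the log2 scale (adjusted p = 0.002), the growth factor receptor gene Csf1r by 0.67 (adjusted p = 0.00343), the integrin gene Itgad by 0.60 (adjusted p = 0.0309) and the perforin-like gene Mpeg1 by 0.47 (adjusted p = 0.00696). At 3 weeks 0 of the 16 passed in limma, where 5.20% of all genes were called higher and 0.833% lower. Their median was -0.08, with 4 lower at an unadjusted p below 0.05. In PMN, 3 of the 16 were higher and 2 lower at 6 than at 3 weeks, with a median of 0.0, where 23.7% and 34.9% of all genes were called. Cd163 rose by 0.95 ± 0.20 SE (adjusted p = 0.00137), Spic by 0.70 ± 0.29 SE (adjusted p = 0.0489) and Sirpa by 0.47 ± 0.11 SE (adjusted p = 0.00175), while Mpeg1 fell by 0.64 (adjusted p = 0.00218) and Cd209b by 0.33 (adjusted p = 0.0239) on the log2 scale. Of 10 markers of endothelium and stroma, other cells that carry Vcam1, 10 were lower in that contrast, with a median of -0.49 beside a receptor gene shift of -0.34. The endothelial genes Cdh5 (6.51 and 6.44) and Kdr (6.12 and 5.98) were under the 95th percentile of the receptor genes in the 3-week PMN arrays. Of the 10 markers, 4 were above that percentile in both 3-week PMN arrays. The part of endothelium and stroma in the Vcam1 values was not tested.

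Relatives of the 9 genes split in Mo at 6 weeks, with 3 of 11 higher and 5 lower, beside 21.8% and 24.4% of all genes. The Siglec genes Cd33 and Siglece rose by 1.64 ± 0.21 SE (adjusted p = 3.63e-05) and 1.28 ± 0.15 SE (adjusted p = 1.27e-05), against the fall of Siglec1. Adgre4 and Adgre5, of the Adgre1 family, fell by 1.58 (adjusted p = 0.00124) and 0.52 (adjusted p = 0.00476) on the log2 scale. Of 4 integrin genes whose products bind VCAM1 or its relatives, 1 rose and 2 fell, and Itga4 fell by 0.72 on the log2 scale (adjusted p = 0.000164).

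Other gene groups and cell markers also changed in Mo cells. Against naive, 5.20% of all genes were called higher and 0.833% lower at 3 weeks, and 21.8% and 24.4% at 6 weeks. At 6 weeks all 10 measured interferon-stimulated genes were lower, with a median of -1.57 (Oasl2 -2.30 ± 0.20 SE, adjusted p = 5.51e-07, and Irf7 -1.86 ± 0.21 SE, adjusted p = 1.00e-05). At 3 weeks 0 of the 10 passed in limma, 1 was higher at an unadjusted p below 0.05 and their median was 0.03, while Siglec1 had fallen by 0.82 on the log2 scale. Of 8 markers of Ly-6C low monocytes, 7 were lower at 6 weeks with a median of -0.82, and their summed intensity ran from 3620 to 7200 against 8350 to 10200 in naive arrays. At 3 weeks 0 of the 8 passed in limma, 0 also at an unadjusted p below 0.05, and the sum ran from 9220 to 9940. Of 12 dendritic cell markers, 9 were lower at 6 weeks and the sum fell from between 4000 and 4100 in naive arrays to between 3150 and 3400 at 3 weeks and between 1370 and 1880 at 6 weeks. Of 9 markers of granulocyte-monocyte progenitors and dividing cells, 7 were higher at 6 weeks with a median of 3.28. Their summed intensity was 7680 to 18200, against 871 to 1530 in naive arrays. Of 5 markers of Ly-6C high monocytes 4 rose, with a median of 0.66. Of 7 B cell markers 6 fell (median -0.77), of 7 T and NK cell markers 6 fell (median -0.97) and of 10 endothelial and stromal markers 5 fell (median -0.33). In the naive and 3-week Mo groups, replicate 1 had the highest B cell sum (1670 and 1500, against 759 to 890 in the others). The part of these cell types in the changes of the 9 genes was not tested.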

How the data were processed

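The authors deposited 1 table of linear intensities for 35557 features of the Affymetrix Mouse Gene 1.0 ST array, made with RMA per the submitters' processing notes, and its version and settings are not given in the sources used here. RMA subtracts background, equalizes the distribution of probe intensities between arrays and summarises probes, so a true shift common to all genes is largely removed. The medians of the deposited arrays still differed (95.3 to 114 in Mo, 81 to 95.9 in PMN). A common shift in these values therefore cannot be told apart from an effect of the processing. The deposited intensities were put on the log2 scale. The plan of this re-analysis had assumed log2 values, and the test did not change. Arrays of the same subset shared more distinct values (median 942.5 for Mo, 251 for PMN) than arrays of different subsets (146), so the subsets were treated as normalized apart and their levels were not tested against each other.

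Of the features, 21789 had 1 gene symbol, 1621 had several and 12147 had none in the platform annotation. Only the first kind were used, and for 999 genes with several such features the brightest was taken, which left 19938 genes. RefSeq held 21698 features by Entrez number, with 0 symbols changed. The limma package (3.58.1, under R 4.3.3) estimated 6 group means from the 17 arrays together, and lmFit, contrasts.fit and eBayes gave two-sided tests. Genes were called at an adjusted p below 0.05 after Benjamini-Hochberg adjustment over the genes of a comparison, and limma gave every p-value printed. No p is adjusted over the 9 genes alone. Deviations from the group mean of same-numbered Mo arrays correlated at 0.63, 0.28 and 0.47 between 3 and 6 weeks, at 0.46, -0.04 and 0.49 between naive and 6 weeks, and at 0.56, -0.09 and 0.61 between naive and 3 weeks. Replicate 2 at 3 weeks correlated at 0.324 with replicate 3 at 6 weeks and at 0.284 with replicate 2. A pairing by number is not in the labels and was not settled by these values. The main test used no pairing. The replicate block of the alternatives took the replicate number as a block over all 17 arrays, naive and PMN arrays included. The pipeline was tested on simulated data. The number of arrays, 2 to 4 a group, limits the precision.

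The 9 genes, the gene lists and the alternatives were chosen with earlier results of these data known. All 9 genes are named, and from each list up to 4 genes with the largest change among those called in Mo at 6 weeks against naive, plus Pros1, Msr1, Tyro3, C2, C5ar1, Anxa5, Cd163, Sirpa, Cd209b and the genes shown with single arrays, chosen after their values were seen. The genes most like a member were those with the smallest mean absolute difference of mean-centred log2 values, leaving out the 9 genes, predicted genes, olfactory receptors and antigen receptor segments. Tables were made with Python 3.11.15, pandas 2.3.3 and numpy 2.4.6 and figures with matplotlib 3.10.9. Promoters are those of RefSeq. The alternatives were centring each array, joint quantile normalization, a floor at a log2 intensity of 6, leaving out dim genes, fitting each subset alone, a replicate block, array weights, eBayes with trend and robust settings, averaging the features of a gene, and leaving out each array in turn. The closing section gives their effect.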

Additional observations from a re-analysis of the deposited data

Results flagged for a closer look

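A difference between the subsets was found for 2 genes by the test of the difference itself. The change of Siglec1 from naive to 6 weeks differed between Mo and PMN arrays by -1.23 on the log2 scale, Mo minus PMN (adjusted p = 5.19e-05), with 3 of 3 Mo arrays and 2 of 2 PMN arrays at 6 weeks below every naive array of their subset. The change of Mrc1 from 3 to 6 weeks differed by -1.31 (limma, adjusted p = 0.0393), with 2 of 2 PMN arrays above both 3-week arrays and with Mo arrays that overlapped. Both genes were close to background in 1 subset. Siglec1 was above the 95th percentile of the receptor genes in 5 of 8 PMN arrays, and Mrc1 in 1 of 9 Mo arrays. The part of background in these differences was not tested. In the naive PMN group, the only one with enough arrays, no array lay far from the others for any of the 9 genes by Dixon's test. That test looks for a lone extreme array, so it was not fit to show the split of replicates 2 and 4 from the other naive PMN arrays.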

How the results depend on the processing

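Each comparison was refitted under 26 alternatives, or 25 for differences of changes, and no change that passed turned its sign. Of single gene values, 1958 kept their side of the threshold, 61 lost a call and 54 gained one, and 6 that did not pass changed sign, 5 of them after joint quantile normalization. The number of the 9 genes called in Mo at 3 weeks was 1, and became 0 with each subset fitted alone and 4 with array weights. In Mo at 6 weeks against naive it was 5, and became 3 after centring, after joint quantile normalization and with a floor at 6. It became 6, with C1qc, with each subset fitted alone (adjusted p = 0.0423) and with array weights (adjusted p = 0.0432). Array weights added C1qb from 3 to 6 weeks (adjusted p = 0.0154). With the floor, 1 gene in place of 3 was called in Mo from 3 to 6 weeks. In PMN at 6 weeks against naive it was 1, and 2 with array weights, and from 3 to 6 weeks it was 3, and 1 after joint quantile normalization and with the floor. For the difference of changes at 3 weeks it was 0, and became 1 after joint quantile normalization and 2 with array weights. At 6 weeks against naive it was 1, and became 2 without dim genes, 2 with the replicate block (with Mrc1, -1.27, adjusted p = 0.0246) and 5 with array weights. From 3 to 6 weeks it was 1, and became 3 after centring, 0 after joint quantile normalization, 0 with the floor, 2 with the replicate block (with Vcam1, -1.12, adjusted p = 0.027) and 6 with array weights. The cause was not tested. Leaving out 1 array in turn gave counts of 1 to 2 in Mo at 3 weeks, 2 to 6 at 6 weeks and 2 to 4 from 3 to 6 weeks, of 0 to 0, 0 to 2 and 0 to 4 in PMN, and of 0 to 2, 1 to 5 and 0 to 5 for the differences of changes. Over all genes, 1202 were called in Mo at 3 weeks, from 2 (each subset alone) to 13209 (array weights). At 6 weeks against naive 9204 were called, from 4475 (without 6-week replicate 3) to 12739, and from 3 to 6 weeks 1497, from 877 (each subset alone) to 3746, both highest with array weights. In PMN the counts were 0 (0 to 13, limma), 13047 (9267 to 15150) and 11694 (7627 to 13644), and for the differences of changes 1 (0 to 6358), 3487 (2098 to 5714) and 5818 (3641 to 10267). The replicate block gave 5 calls in Mo at 6 weeks against naive, 2 from 3 to 6 weeks (without Adgre1, adjusted p = 0.059) and 3 in PMN from 3 to 6 weeks. It changed no other call of the 9 genes. Signal over background limits C1qa, C1qc, Mrc1, in part C1qb and, before 6 weeks, Mertk in Mo arrays.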
